A study of Daphnia magna with 22 samples.

Results

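The comparison described here set 3 adult females of the GB clone of the water flea Daphnia magna that had been bathed in beta-hydroxybutyrate (BHB, 2.5 mM) against 3 GB females that had been bathed in plain medium. They are 6 of the 22 whole-body RNA-seq libraries of the series and were chosen by clone and treatment alone. All 6 animals were on the full diet of 400000 algal cells per mL and per day. Both groups were moved into trays for 2 h each day, so by design they differed in the BHB and not in this handling. Their library numbers differed too, at 3, 4 and 5 for GB BHB and 1, 10 and 9 for GB control 1, 2 and 3. The other GB libraries came from 2 females bathed in nicotinamide mononucleotide (NMN, 0.1 mM, full diet) and 3 under caloric restriction (CR, 100000 cells per mL, plain medium). The IL clone had 3 BHB, 2 NMN, 3 CR and 3 control females. The lineage of GB goes back to a London lake that holds water all year, that of IL to a summer-dry pond in Jerusalem. Each clone is 1 genotype, kept by parthenogenesis, so that the animals of a group are genetic copies. The animals lived 5 to a tube and descended from 3 stock females per clone. They were sampled at an age of 75 ± 2 days (the design text's sign between these numbers is a symbol-font character, read as plus-minus), when about 20% of the full-diet control cohort and 10% of the CR cohort had died. All were within 24 h of egg laying, and the new eggs were removed before extraction.

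BHB is a ketone body, a small acid that mammals make in the liver from fatty acids during fasting and that other tissues oxidise. In mammals it also acts as a signal, by binding a receptor on fat and immune cells and by inhibiting some histone deacetylases. Ketone bodies rise when food is scarce, and for this reason BHB has been tried as a way to imitate food restriction in well-fed animals. The question of the comparison was whether BHB given to fully fed animals changed the transcriptome of this clone.

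The 3 BHB libraries held 12640496, 8503141 and 11208605 counted reads, against 13770280, 13358773 and 14353733 in the 3 control libraries. Precision was therefore lowest in GB BHB 2. The count table lists gene models by protein accession or by the ID of a gene prediction and pairs neither with a gene name, so gene models are given by ID, 2 in each direction per comparison, or by rank of abundance. Levels are CPM, read counts scaled by library size, and log2 fold changes are BHB minus the group it is set against. In whole bodies, fewer cells of a type and less RNA per cell cannot be told apart.

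No gene model changed between GB BHB and GB control at an adjusted p of 0.05 (0 of 4243 tested, 0%, edgeR). At an unadjusted p under 0.05 there were 173 gene models (4.08%), of which 42 were higher (0.99%) and 131 lower (3.09%) in BHB. With library number as a linear term there were 65, and again none passed. DESeq2, run on the same libraries, called 6 (0.141%), 3 higher and 3 lower, and 4 of these 6 are among those named here. The sizes of the differences were small for most gene models. The median absolute log2 difference was 0.16, 2134 gene models measured higher and 2109 lower in BHB, and 228 (5.37%) differed by over 2-fold, 42 higher and 186 lower.

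KZS08369 was the gene model with the smallest p. It measured 17.6, 16.9 and 21.2 CPM in the BHB libraries, against 6.36, 5.05 and 3.96 CPM in the control libraries. All 3 BHB animals lay above all 3 controls, and the BHB values were close to each other. The log2 fold change was 1.84 ± 0.25 (SE, edgeR adjusted p = 0.679, DESeq2 adjusted p = 3.01e-07), and edgeR with no low-count filter gave an adjusted p of 0.0357. Leaving out each library in turn gave log2 fold changes of 1.68 to 2.02, with an edgeR adjusted p of at least 0.0858. The adjusted p was 0.553 in limma-voom and 0.998 in edgeR with the replicate number as a block. In the other GB groups KZS08369 measured 4.68 and 4.41 CPM with NMN and 42.8, 26.4 and 45.9 CPM under CR. The GB order of levels was thus CR, BHB, control and NMN, with NMN and control overlapping. In IL the same gene model had 3.30, 7.13 and 1.69 CPM in BHB and 9.23, 5.81 and 1.57 CPM in control, groups that overlap (log2 fold change -0.45 ± 0.76).

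KZS18998 measured 5.61, 15.8 and 15.3 CPM in the BHB libraries, against 1.95, 3.67 and 1.72 CPM in the control libraries. The groups did not overlap, but GB BHB 1 lay nearer to the controls than to the other BHB animals. The log2 fold change was 2.30 ± 0.51 (SE, edgeR adjusted p = 0.962, DESeq2 adjusted p = 0.00865). One CR female reached 17.6 CPM while the other CR females had 1.53 and 3.41 CPM, so a high level was not limited to BHB. It was scarce in the IL clone, at 0.644 to 0.996 CPM in BHB and 0.254 to 0.922 CPM in control.

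Of the gene models that measured lower in BHB, KZS13699_1 had 15.7, 17.2 and 15.1 CPM in BHB, against 20.96, 52.8 and 48.0 CPM in control. The BHB animals were tightly grouped, and GB control 1 lay just above them. The log2 fold change was -1.36 ± 0.34 (SE, edgeR adjusted p = 0.962, DESeq2 adjusted p = 0.106). With library number as a linear term the log2 fold change of KZS13699_1 was -0.861. In IL its BHB values of 21.4, 20.2 and 25.5 CPM overlapped the control values of 14.5, 16.6 and 22.8 CPM. The table lists its ID 4 times, and reads may be split among them. KZS13699_2 had a log2 fold change of -0.80 (edgeR unadjusted p = 0.0481), KZS13699_3 had 0.10 (unadjusted p = 0.716), and KZS13699_4 had no reads in these libraries.

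KZS15419_2 measured 210.1, 226.4 and 201.5 CPM in BHB, against 644.3, 277 and 797.4 CPM in control. The groups did not overlap, and the lowest control, GB control 2, was close to the BHB range. The log2 fold change was -1.44 ± 0.36 (SE, edgeR adjusted p = 0.962, DESeq2 adjusted p = 0.0465), and leaving out each library in turn gave -1.77 (edgeR adjusted p = 0.0568, without GB control 2) to -1.13 (0.275, without GB control 3), with an adjusted p of up to 1. The NMN animals had 138.7 and 185.8 CPM and the CR animals 32.4, 50.0 and 10.4 CPM, so every other GB group lay below the 3 controls. Its ID is on 2 rows, the other of which had 17 reads in BHB and 33 in control and was not tested.

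**Figure D1:**
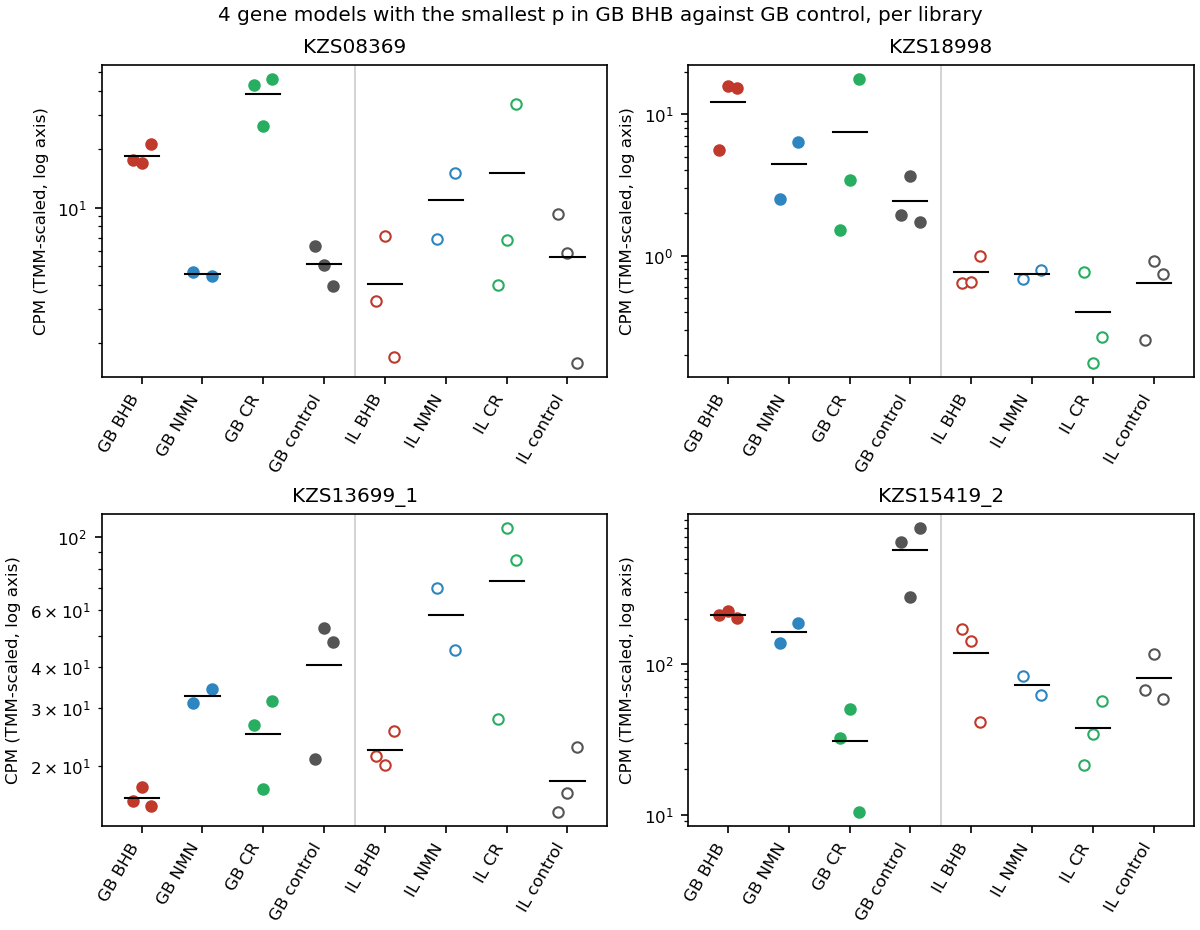
CPM on a log axis of the 4 named gene models in each library (points) by clone and treatment, with group means as bars; filled points are GB and open points IL. The 3 GB BHB libraries of KZS08369 sit between 16.9 and 21.2 CPM, above the GB controls and below the GB CR libraries.

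One control library stood apart from the other 5. GB control 2 lay over 4-fold outside the range of the other libraries at 87 gene models, 49 higher and 38 lower. The same count was 0, 27 and 1 for the 3 BHB libraries, and 6 and 10 for GB control 1 and GB control 3. The distance between libraries (Euclidean, log2 CPM over 4243 gene models) was 39.8 to 47.2 among the 3 BHB animals and 50.8 to 75.8 among the 3 controls. Between BHB and control it was 37.6 to 52.1 for GB control 1 and GB control 3, and 70.1 to 75.4 for GB control 2. The BHB animals were therefore no farther from those 2 controls than the 2 controls were from each other (54.1). The first principal component held 53.9% of the variance, with GB control 2 at 51.3, GB control 1 at 15.5, and the other control and the 3 BHB libraries between -20.5 and -11.1.

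The 87 gene models were chosen from the 6 libraries of this comparison, so their levels in these 6 are a description. They were then followed in the 16 libraries that had not been used to choose them. The 49 had a median of 1.31, 1.40 and 1.55 log2 CPM in the GB BHB libraries, against 3.03, 6.50 and 1.27 log2 CPM in the GB control libraries. The 38 had a median of 5.15, 4.58 and 5.23 log2 CPM in GB BHB, against 2.31, -0.54 and 5.49 log2 CPM in GB control. All 3 BHB animals and GB control 3 were thus at one end, GB control 2 was at the other, and GB control 1 was between them. The pattern of GB control 2 was also seen among the 16 libraries that had not been used to choose the gene models. The 49 were above the 38 in GB NMN 1 (5.58 against 0.02 log2 CPM), IL BHB 3 (5.20 against 0.17), IL CR 1 (5.05 against 1.37), IL control 3 (4.17 against 1.23) and GB NMN 3 (3.53 against 2.06). It thus appeared with BHB, NMN, CR and plain medium and in both clones, and in none of the 3 GB CR libraries. The 3 GB BHB libraries did not have it either, but they were among the libraries used to choose the gene models. The labels give no measure that separates these animals, and the part of this pattern in the comparison was tested only by leaving out GB control 2.

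**Figure D2:**
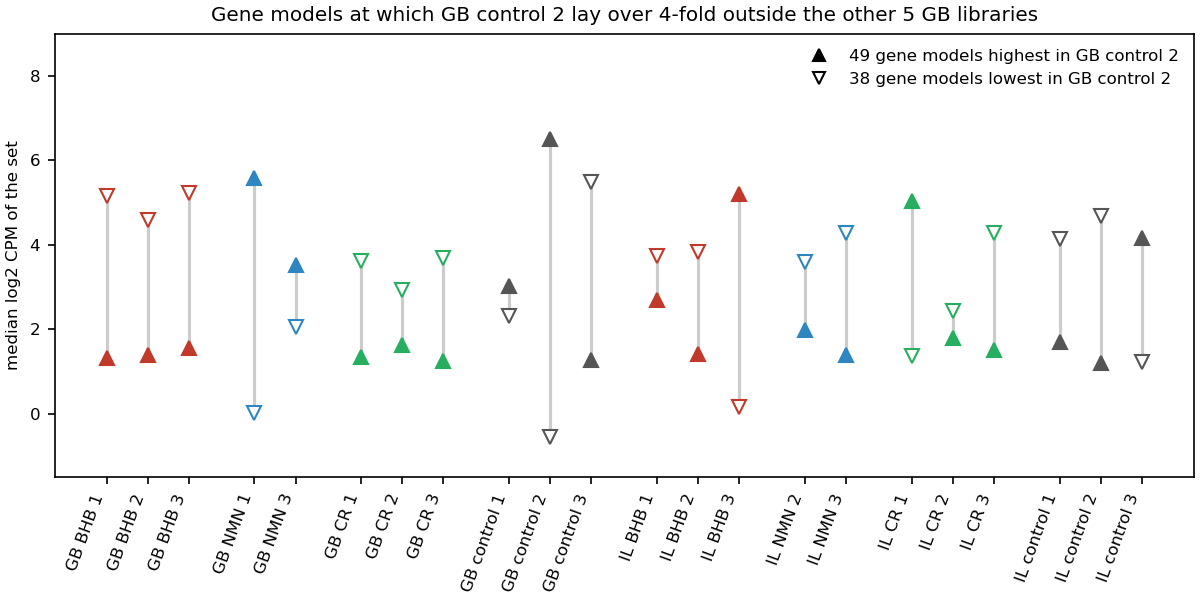
Median log2 CPM in each library of the 49 gene models highest (filled triangles) and the 38 lowest (open triangles) in GB control 2, by clone and treatment. The filled triangle is above the open one in GB control 1, GB control 2, both GB NMN libraries, IL BHB 3, IL CR 1 and IL control 3, and below it in all 3 GB BHB libraries. The GB BHB and GB control libraries were those used to choose the sets.

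Of the 228 gene models that differed by over 2-fold between BHB and control, 60 were among the 87, which had been chosen from the same control values. Without GB control 2, 172 of 4349 gene models (3.95%) differed by over 2-fold, 85 (1.95%) had an unadjusted p under 0.05 and again none passed in edgeR. GB control 3 mattered in the other direction: without it 5 gene models passed and 429 had an unadjusted p under 0.05. The BHB libraries moved the count at an unadjusted p under 0.05 as well, from 173 with all libraries in. It was 96 without GB BHB 1, 114 without GB BHB 2 and 288 without GB BHB 3. It was 203 without GB control 1, and none passed in edgeR in any of these 4 fits. The lower count was thus not particular to leaving out GB control 2.

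Single animals were compared next. At 374 gene models (8.81%) the 3 BHB and 3 control values did not overlap, with 166 higher (3.91%) and 208 lower (4.9%) in BHB. In IL the corresponding share was 8.63% of 4184. With 3 against 3 libraries, a fraction of 0.1 is to be expected if the group labels carry no information, and neither share exceeds it. The IL animals shared no library with the GB comparison, and so give the same measure in other samples. Of the 335 gene models without overlap in GB that were also tested in IL, 104 (31%) had the same sign there, against 39.9% of all 3878 gene models tested in both. Of the 335, 11 were without overlap in IL too in the same direction and 11 in the opposite direction. The share over all IL gene models was 8.63% in either direction, so these counts are a description. Without IL control 2 alone, 172 of 342 (50.3%) had the same sign, against 46.6% of all. Without IL BHB 3 alone it was 158 of 342 (46.2%), against 47% of all, so the lower share rested on single animals. Without GB control 2 and IL BHB 3, 241 of 540 (44.6%) had the same sign, against 45.8% of all.

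Across gene models, the BHB effects of the clones were negatively related with all libraries in. The Pearson r of the log2 fold changes was -0.34 (Spearman rho -0.27, over 3878 gene models, which are not independent and share the depth and scaling of each library). It ranged from -0.57 to 0.21 when each of the 12 libraries was left out in turn, and it changed sign only without IL BHB 3. It was -0.13 without GB control 2 and 0.15 without GB control 2 and IL BHB 3. Spearman's rho was -0.01 without IL BHB 3 and -0.02 without both, so it came close to 0 and did not turn positive. Both of these animals had the 49 gene models high; the part of this in the relation was not tested beyond leaving them out.

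**Figure D3:**
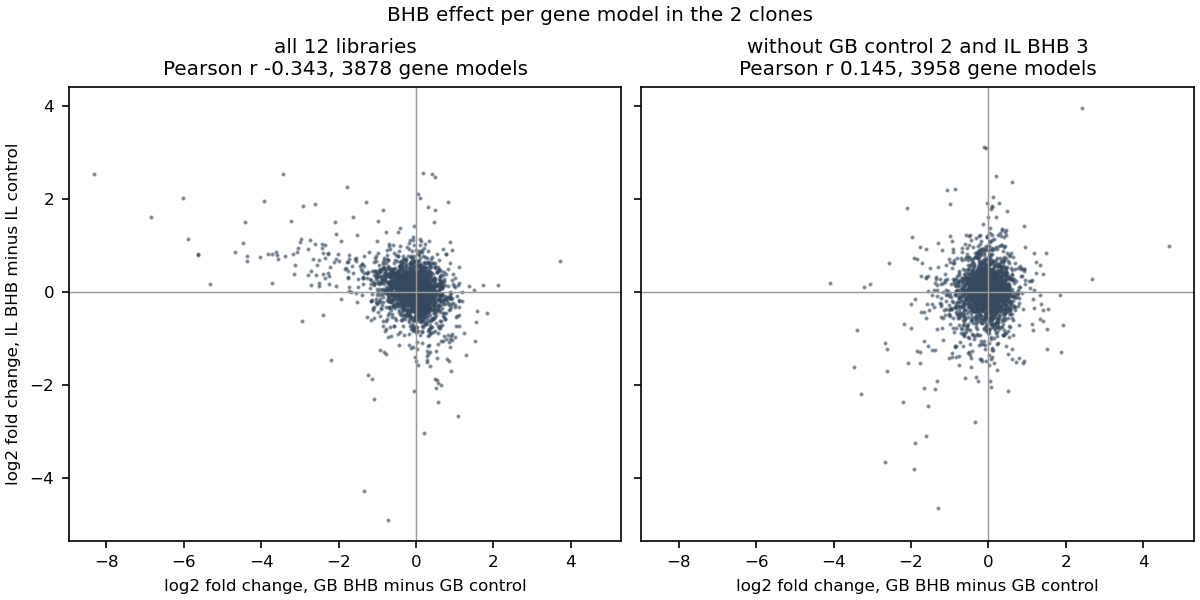
Log2 fold change of BHB against control for each gene model in GB (x axis) and IL (y axis), with all 12 libraries (left) and without GB control 2 and IL BHB 3 (right). The tail of gene models low in GB and high in IL is seen on the left, with a Pearson r of -0.343, and not on the right, where r is 0.145.

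The difference of the BHB effect between the clones was tested directly. No gene model passed (0 of 4604, 0%, edgeR, 244 or 5.3% at an unadjusted p under 0.05; DESeq2 called 2). IL BHB against IL control alone gave 0 of 4184 as well (0%, edgeR, 123 or 2.94% at an unadjusted p under 0.05; DESeq2 called 1). With 1 library left out, the counts at an unadjusted p under 0.05 ran from 149 (without GB control 2) to 433 (without IL control 3) for the clone difference, and from 65 (without IL BHB 1) to 375 (without IL control 3) for IL alone. KZS12501 measured 24.6, 14.7 and 37.8 CPM in GB BHB against 10.3, 6.76 and 9.03 CPM in GB control, and 4.27, 2.16 and 3.22 CPM in IL BHB against 3.73, 6.73 and 4.72 CPM in IL control. All GB BHB animals were above their controls, whereas the IL groups overlapped with BHB on the low side. The difference of log2 fold changes was 2.16 ± 0.52 (SE, edgeR adjusted p = 0.771, DESeq2 adjusted p = 0.134). KZR99871_1 had 575.2, 546.3 and 720.8 CPM in GB BHB against 713.4, 1613.8 and 1232.4 CPM in GB control, where GB BHB 3 overlapped the lowest control. In IL it had 254.6, 320.6 and 271.9 CPM in BHB against 132.8, 141.9 and 205.3 CPM in control, with every BHB animal higher. The difference was -1.82 ± 0.39 (SE, edgeR adjusted p = 0.771, DESeq2 adjusted p = 0.0392). KZR96781 (2.56 ± 0.64) and KZS08085 (-1.06 ± 0.26) had an edgeR adjusted p of 0.771 too, and a DESeq2 adjusted p of 0.221 and 0.232.

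The most abundant gene models were then read as shares of the RNA. The 10 most abundant took 22, 17.3 and 23.4% of counts in GB BHB, against 18.7, 16.4 and 21.3% in GB control. The groups overlapped, at 20.9 ± 3.21% and 18.8 ± 2.46% (SD, n = 3 each; two-sided exact permutation p = 0.4, adjusted 0.7 over 3 such tests, where the smallest p possible is 0.1). The most abundant of all measured 90905, 52554 and 92491 CPM in BHB, against 55944, 19944 and 61177 CPM in control, with GB control 2 the lowest and the groups overlapping (log2 fold change 0.78 ± 0.48, edgeR adjusted p = 0.974). Of the 10, 4 measured higher and 6 lower in BHB, and none had an unadjusted p under 0.05 in edgeR. The tenth was the only one whose groups did not overlap, at 9841, 9826 and 13633 CPM in BHB against 8903, 6362 and 9110 CPM in control.

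The BHB animals differed among themselves at a set of abundant gene models. GB BHB 2 lay over 4-fold below all 5 other libraries at 26 gene models, 3 of them among the 50 most abundant. The ninth most abundant measured 272.4 CPM in GB BHB 2, against 12183 and 8444 CPM in the other BHB animals and 10289 to 15776 CPM in control. The fourteenth had 362.2 CPM in GB BHB 2, against 9171 and 6391 CPM in the other BHB animals and 9299 to 13975 CPM in control. The 26 together summed to 1490 CPM in GB BHB 2, whereas the other 21 libraries of the series ran from 16400 to 65900 CPM. Such a low level was thus seen in 1 animal of the series, which is also the one with the fewest reads. Over all 4243 gene models the 3 BHB values spanned over 4-fold at 122 (2.88%), the 3 control values at 319 (7.52%) and the 3 CR values at 75 (1.77%). The median log2 range went the other way between BHB and control, at 0.49 in BHB, 0.37 in CR and 0.45 in control.

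**Figure D4:**
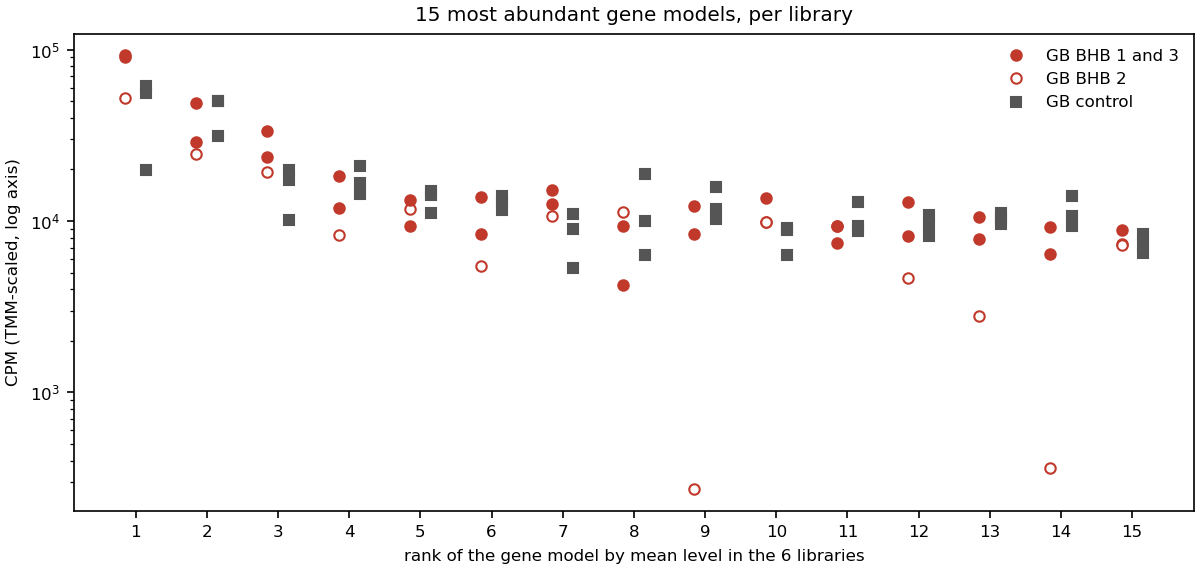
CPM on a log axis of the 15 most abundant gene models in the 3 GB BHB libraries (circles, GB BHB 2 open) and the 3 GB control libraries (squares). GB BHB 2 falls to 272.4 CPM at rank 9 and 362.2 CPM at rank 14; the lowest of the other libraries there has 6391 CPM.

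BHB on the full diet was compared directly with CR in the same clone, since BHB is set beside CR in the study. Between GB BHB and GB CR, 14 of 4610 gene models changed (0.304%, edgeR), 7 higher and 7 lower in BHB, and 638 (13.8%) had an unadjusted p under 0.05. All 14 were without overlap between the groups, as were 23.6% of all gene models tested. The 7 that were higher all differed by over 2-fold, as did 2 of the 7 that were lower. The GB CR libraries carry library numbers 17, 19 and 20 and the GB BHB libraries 3, 4 and 5, so that a step shared by neighbouring numbers and the diet cannot be told apart, and with library number as a term none passed. Leaving out 1 library gave from 0 calls (without GB CR 1 or GB CR 3) to 18, with 2 without GB BHB 1, 5 without GB BHB 3 and 3 without GB CR 2. DESeq2 called 190.

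KZS12501 was the gene model with the largest rise in BHB over CR. Its BHB values of 24.6, 14.7 and 37.8 CPM compare with 1.53, 1.96 and 1.23 CPM in CR. The log2 fold change was 4.00 ± 0.41 (SE, edgeR adjusted p = 0.00709), and the adjusted p was 0.0581 without GB CR 1 and 0.093 without GB CR 3. The GB controls lay between both groups, at 10.3, 6.76 and 9.03 CPM, and so did the NMN animals, at 8.82 and 4.75 CPM. KZS16639 had 8.997, 9.40 and 14.6 CPM in BHB, against 0.417, 1.28 and 0.613 CPM in CR (3.82 ± 0.45, SE, edgeR adjusted p = 0.0135; 0.0581 without GB CR 1 and 0.107 without GB CR 3). Its controls, at 8.98, 12.7 and 6.12 CPM, overlapped with BHB.

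Of the gene models lower in BHB than in CR, KZS10168 had 46.9, 88.2 and 92.2 CPM in BHB, against 287.2, 217.2 and 249.2 CPM in CR. The log2 fold change was -1.75 ± 0.28 (SE, edgeR adjusted p = 0.0389), with controls between at 116.1, 183.4 and 124.8 CPM. Its call was lost without any 1 of the 6 libraries (edgeR adjusted p of 0.057 to 0.147) with the replicate number as a block (0.0745) and in the fit of all 22 libraries (0.444). KZS05953 had 11.8, 8.62 and 10.5 CPM in BHB, against 28.5, 22.8 and 34.9 CPM in CR (-1.49 ± 0.20, SE, edgeR adjusted p = 0.0151), and its controls, at 12.4, 10.2 and 14.1 CPM, overlapped with BHB. Its edgeR adjusted p was 0.0776, 0.0506 and 0.06 without GB BHB 1, GB BHB 2 and GB BHB 3, and 0.0822 and 0.107 without GB CR 1 and GB CR 3.

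The control libraries enter this fit through the filter, the scaling and the estimate of the spread. The mean control level lay between the BHB and CR means at 13 of the 14, at 38.9% of all 4610 gene models and at 64.1% of the 1090 whose BHB and CR values did not overlap. The 14 were called for their distance between BHB and CR, so these placements are a description. The step from BHB to control was a median of 19.8% of the whole gap between BHB and CR on the log2 scale. That step was over 50% of the gap at 4 gene models. KZS21366_1, named also in the comparison with NMN, was one of the 4. It measured 112.4, 84.2 and 117 CPM in BHB, 49.7 and 41.4 CPM with NMN, 46.1, 38.2 and 47.8 CPM under CR and 53.3, 69.9 and 61.0 CPM in control, and in this clone the 3 BHB animals were above all others. Its log2 fold change was 1.23 ± 0.16 against CR (SE, edgeR adjusted p = 0.0151) and 0.75 ± 0.18 against control (adjusted p = 0.962). Its ID is on 3 rows. Against control, KZS21366_2 had a log2 fold change of 0.07 (edgeR unadjusted p = 0.681). KZS21366_3 had 4 reads in BHB and 6 in control and was not tested. In IL, KZS21366_1 had a log2 fold change of 0.15 ± 0.29 between BHB and control (SE).

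In IL, whose libraries had no part in choosing the 14, no gene model passed between BHB and CR in edgeR (0 of 4482, 383 or 8.55% at an unadjusted p under 0.05). Of the 14, 13 had the same sign in IL as in GB, against 64.6% of the 4155 gene models tested in both clones. An unadjusted p under 0.05 was found in IL at 6 of the 14, and 8 of the 14 were without overlap in the same direction, against 15.2% of all gene models in either direction. KZS12501 (log2 fold change 1.59 ± 0.41 in IL, edgeR adjusted p = 0.366) and KZS16639 (1.52 ± 0.42, adjusted p = 0.366) were higher in every IL BHB animal than in every IL CR animal. The IL CR libraries also have the numbers that follow those of all other groups, so the clones share that feature.

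**Figure D5:**
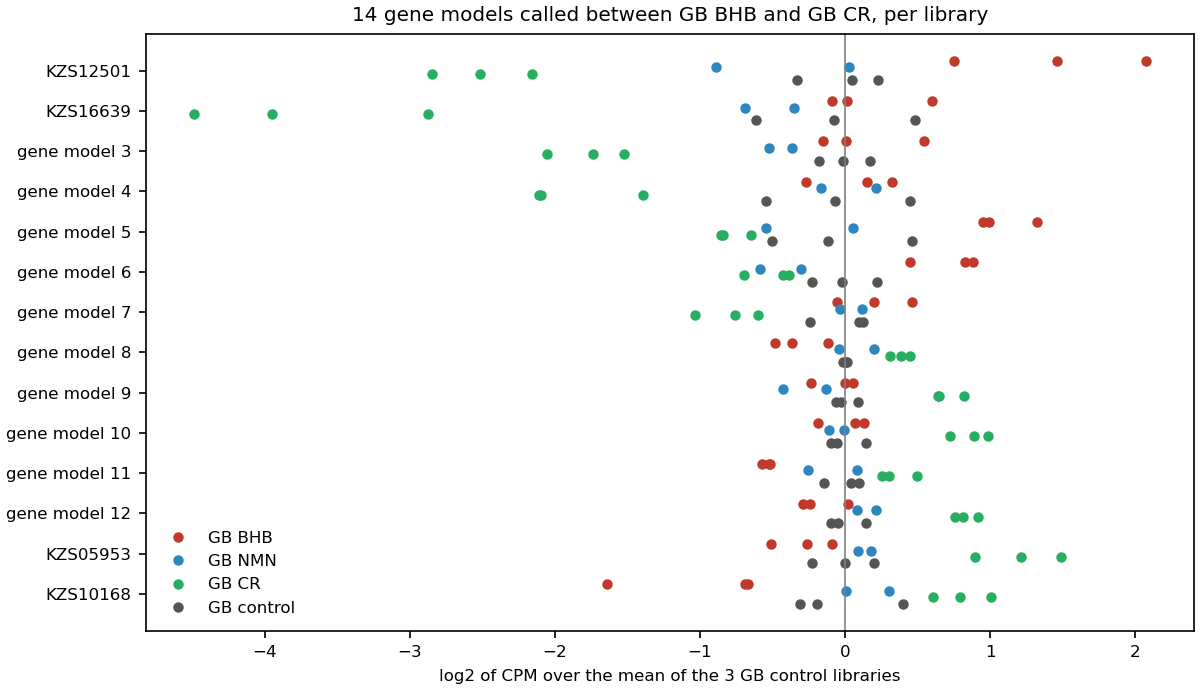
Level of the 14 gene models called between GB BHB and GB CR in each GB library, as log2 of CPM over the mean of the 3 GB controls. The CR points lie apart from the BHB points in every row, and the control mean lies between the BHB and CR means in 13 of the 14.

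Against NMN, which was given in the same baths and diet, no gene model passed (0 of 4610, 0%, edgeR, 587 or 12.7% at an unadjusted p under 0.05; DESeq2 called 72). Both GB NMN animals had the 49 gene models above the 38, and no GB BHB animal did; the part of this in the comparison was not tested. The 587 became 186 without GB NMN 1 and 379 without GB BHB 1. The count that passed depended on a single library too: 8 gene models passed without GB control 2. That library enters this comparison through the filter, the scaling and the spread, and not through a group mean. Without GB NMN 1 only 1 NMN animal is left, assumed to vary like the other groups. The smallest p again belonged to KZS08369, at 17.6, 16.9 and 21.2 CPM in BHB against 4.68 and 4.41 CPM with NMN (log2 fold change 2.00 ± 0.29, SE, edgeR adjusted p = 0.157, DESeq2 adjusted p = 1.08e-06). KZS21366_1 followed with 1.17 ± 0.19 (edgeR adjusted p = 0.2). Without GB control 2 both had an edgeR adjusted p of 0.0414. KZS19644 had 46.3, 49.7 and 44.7 CPM in BHB against 83.6 and 69.1 CPM with NMN, and KZS09381 had 263.8, 247.5 and 237.1 CPM against 387.9 and 332 CPM. Both were lower in all 3 BHB animals, with log2 fold changes of -0.73 ± 0.13 and -0.55 ± 0.10 and an edgeR adjusted p of 0.29 each. GB controls measured 54.8 to 60.4 CPM at KZS19644 and 295 to 315.1 CPM at KZS09381, between the BHB and NMN animals at both.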

How the data were processed

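Per the labels, the authors deposited unnormalized counts of reads on the sense strand of each gene model, from a directional kit. Per the submitters' processing notes, their tools included Trim Galore 0.4.5, FastQC, DESeq2 and STAR. How reads were counted, and on which build and annotation, is not given in the sources used here. The table has 14657 rows with 9831 distinct IDs, 6372 rows sharing an ID with another (suffixes tell them apart), and 0 IDs matched RefSeq's genes (assembly GCF_020631705.1). The gene lists and tissue markers drawn up for named genes therefore have no members.

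Title letters gave clone and treatment; the low-food letter was read by elimination. GB BHB and GB control were fitted alone, the clone difference on 12 libraries, and BHB against CR or NMN on the 11 GB libraries. Gene models passed edgeR's filterByExpr (minimum count 10, minimum total 15), counts were TMM-scaled and tested with the robust quasi-likelihood F test of edgeR 4.0.16 (R 4.3.3), with Benjamini-Hochberg adjustment over all gene models tested and a threshold of 0.05. CPM shown by group use 1 scaling over all 22 libraries; log2 CPM used a prior count of 2, and ranks and distances use the 6 libraries. The named gene models are the 2 in each direction with the smallest p and a mean log2 CPM of at least 1 or, where 5 or more passed, the largest fold. KZS21366_1 was thus named by the NMN comparison. Totals in the 6 libraries were 8503141 to 14353733 counts, and the biological coefficient of variation was 34.3%. Replicates of a group differed by more than sampling noise (chi-square over its degrees of freedom at least 93.7). P-values measure the spread between animals, which may share one of 3 lineages. DESeq2 1.42.0 and limma 3.58.1 served as alternatives. The fit was tested on simulated counts. The comparison, gene models and alternatives were chosen with earlier results of these data known.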

Additional observations from a re-analysis of the deposited data

Results flagged for a closer look

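Each BHB library was set against the mean log2 CPM of its own clone's controls. At 7 of the 14 named gene models every GB BHB library lay on one side of that mean. Every IL BHB library lay on the other side of its own at these 7. The same held at 9.6% of the 4604 gene models tested for the clone difference, and the 14 had been named for large differences, so the count of 7 is a description. The tests of the difference between clones gave an edgeR adjusted p of 0.771 for each of these gene models except KZS10168 (0.876), so none passed. The values are mean differences of log2 CPM from the control mean, in GB and then in IL. They were 1.46 and -0.64 for KZS12501, and 1.45 and -0.92 for KZR96781. They were -0.88 and 0.84 for KZR99871_1, and -0.75 and 0.24 for KZS08085. These 4 had been named for their difference between the clones. They were -1.23 and 0.33 for KZS13699_1, and -0.28 and 0.33 for KZS19644. KZS10168 had -0.93 in GB and 2.22 in IL, where IL control 2 measured 0.638 CPM and the other IL controls 132.8 and 166.8 CPM. In CPM, IL BHB 3 at 81.2 lay below the IL control mean of 100.1, so KZS10168 met the rule on the log2 scale only.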

How the results depend on the processing

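For GB BHB against GB control the edgeR count of 0 stayed 0 except under DESeq2 (6), no low-count filter (1) and the range with 1 library left out (0 to 5, the 5 without GB control replicate 3). For the clone difference DESeq2 gave 2 and the left-out libraries 0 to 1; for IL alone DESeq2 gave 1 and the left-out libraries 0 to 0. For BHB against CR the 14 became 190 (DESeq2), 29 (no low-count filter), 59 (adjusted p of 0.1), 78 (all 22 libraries), 0 (library number as a term), 36 (without GB control 2 and GB NMN 1) and 0 to 18 with 1 library left out. For BHB against NMN the 0 became 72 (DESeq2), 2 (no low-count filter), 8 (without GB control 2) and 0 to 8 with 1 library left out. Some settings were chosen after seeing the data. They are those that leave out 2 libraries together, or GB control 2 for BHB against NMN or for the non-overlapping gene models. The cause of these changes was not tested.

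The non-overlapping gene models numbered 601 (13.8%) without GB control 2. Over the 6 libraries left out in turn they numbered up to 1213 (27.6%, without GB BHB 3). Fewer animals then have to be separated, so labels without information would give a larger share than with 3 against 3. Non-overlapping gene models with the same sign in IL numbered 241 of 540 (44.6%) without GB control 2 and IL BHB 3, against 45.8% of all. The share of counts in the 10 most abundant gene models differed by 0.872 to 3.93 percentage points with 1 library left out. The number of gene models detected at equal depth (8503141 reads) differed by -40.3, and by 19.7 without GB BHB replicate 3 and 35.5 without GB control replicate 1 (range -93.5 to 35.5). The share in gene models without a protein accession differed by -0.0453 to -0.00924 points.

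Same-numbered BHB and control animals did not deviate together (correlations of -0.0725, 0.0145 and -0.087), so the numbers were not taken as pairs. With the replicate block the counts were 0 against control, 0 for the clone difference, 10 against CR and 0 against NMN.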

Other observations

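Of the 14657 rows of the table, 6963 had no reads in the 6 libraries. Another 13 had reads in all 3 GB BHB libraries and none in the 3 GB control libraries, with at most 10 reads in a row. The reverse held for 38 rows, with up to 115 reads in a row. The control libraries were deeper, at 41482786 reads in all against 32352242 in BHB.

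At equal depth 5879, 5827 and 5673 gene models had at least 1 read in the GB BHB libraries, against 5985, 5727 and 5788 in the GB control libraries (two-sided exact permutation p = 0.7, smallest possible 0.1). Gene models without a protein accession took 0.655, 0.689 and 0.624% of counts in GB BHB, against 0.686, 0.716 and 0.644% in GB control (two-sided exact permutation p = 0.5). The groups overlapped in both measures.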
